A study of Mus musculus with 38 samples.

Results

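The genes of the cytosolic ribosomal proteins were followed through the polysome and non-polysome RNA of mouse oocytes and early embryos. Members were the protein-coding genes whose symbol is that of a large subunit protein (Rpl or Rplp with a number) or of a small subunit protein (Rps with a number, or Rpsa). The rule used names and no measured value, but it was set with earlier results of these data known. By this rule 85 of the 23125 genes in the deposited table, of which 16151 are protein-coding, were members, with 52 genes of the large subunit and 33 of the small subunit. The test across genes could be applied to 81 members (48 large, 33 small), and the remaining 4, Rpl3, Rpl3l, Rpl5 and Rpl9, lay under the minimum level and are described at the end.

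The cells, labelled WT where a genotype is given, were fully grown GV oocytes in meiotic prophase, MII oocytes in meiotic M-phase, zygotes and two-cell embryos, the embryos each taken in interphase and also in mitosis (called zygote M and two-cell M). Oocytes were taken from PMSG-stimulated ICR females aged at least 6 weeks. GV oocytes were isolated under IBMX, which holds them in prophase, MII oocytes had been cultured for 12 h without it, and embryos came from females given hCG and mated within the strain. Thus the step from MII to zygote cannot be told apart from the change from cultured oocytes to embryos of hCG-treated, mated females. Embryos of both M-phase groups, and of no other group, had been treated with 10 µM nocodazole, which blocks spindle formation, so the M-phase and the drug cannot be told apart in these embryos. Lysates from cycloheximide-treated cells were separated on sucrose gradients into 10 fractions, of which the 5 lighter were pooled as non-polysome and the 5 heavier as polysome RNA. Each stage and fraction had 3 libraries, described by the submitters as biological triplicates, and 2 of the 38 samples, both zygote replicate A, have no column in the table and were not analysed.

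A ribosome holds one copy of most of its proteins, and cells make the proteins of the large and small subunits in step. The mRNAs of nearly all of them begin with a terminal oligopyrimidine (TOP) tract, a C followed by a stretch of C and T at the cap, through which mTOR signalling and the protein LARP1 set how well they are translated. Repressed TOP mRNAs leave polysomes and sit in light gradient fractions. In the mouse oocyte transcription stops before meiosis resumes and starts again in the embryo, with a main wave at the two-cell stage, so until then the mRNAs present are those the growing oocyte stored.

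Values were FPKM, fragment counts divided by transcript length and by the library's own total, so the amount of RNA per embryo is not measured. A level is relative to its library, but the FPKM of all genes did not sum to the same total. The sums ran from 88982 FPKM in zygote polysome replicate B to 247361 FPKM in two-cell M non-polysome replicate B. Group means were 230000 FPKM non-polysome and 134000 FPKM polysome at two-cell M, and 155000 and 107000 FPKM at two-cell. The part of these unequal totals in the fraction differences was not tested. In these bulk samples fewer cells and less RNA per cell cannot be told apart. Every library has a lowest listed value of 0.01 FPKM, here called the floor. From the steps between low values the libraries were estimated to hold 8490000 to 26700000 fragments, and 46.2 to 62.9% of the low values used came out as whole fragments within 0.1 of one, so this depth is an estimate. At that depth a single fragment was worth 0.0101 to 0.435 FPKM for a member, depending on transcript length and library, and lower levels cannot be separated from the floor. The 8 oocyte marker genes summed to 3630 to 5360 FPKM in GV libraries and to 11.6 to 187 FPKM in two-cell M libraries. Summed levels of cumulus and granulosa markers were 0.08 to 23.6 FPKM, of sperm markers 0.03 to 6.32 FPKM and of leukocyte markers 0.02 to 14.4 FPKM. Of 4 red blood cell genes the alpha globins Hba-a1 and Hba-a2 carried a sum of 24.4 to 162 FPKM in 11 of 12 libraries from two-cell and two-cell M embryos against at most 1.33 FPKM in earlier stages. The part of these genes in the results was not tested.

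The start of the transcript was read for 65 members that have a promoter entry in RefSeq (GRCm38.p6), and 20 had none. A strict TOP start, that is a C at the annotated start followed by 4 more bases that are each C or T on the gene's own strand, was present in 13 of 65 members (20%) against 823 of 32851 entries in all (2.51%). A run of at least 8 pyrimidines within 20 bases of the start was present in 28 of 65 members (43.1%) against 16% of all entries. For the large subunit the counts were 6 and 17 of 40 members and for the small subunit 7 and 11 of 25. The windows of the members that the results turn on are shown 5′ to 3′, from 15 bases before the annotated start to the first 15 transcribed bases, with the longest pyrimidine run in capitals, the first where runs tie. Rps6 lies at chr4:86857353-86857382 (minus strand), Rpl35 at chr2:39005117-39005146 (minus), Rplp2 at chr7:141447636-141447665 (plus), Rps27l at chr9:66946071-66946100 (plus), Rps27 at chr3:90213634-90213663 (minus), Rps27rt at chr9:114982725-114982754 (minus) and Rpl24 at chr16:55966260-55966289 (plus).
Rps6: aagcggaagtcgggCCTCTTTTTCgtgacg
Rpl35: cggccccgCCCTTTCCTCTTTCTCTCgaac
Rplp2: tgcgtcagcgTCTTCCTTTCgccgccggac
Rps27l: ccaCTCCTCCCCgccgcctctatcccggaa
Rps27: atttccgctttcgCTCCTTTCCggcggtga
Rps27rt: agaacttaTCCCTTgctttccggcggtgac
Rpl24: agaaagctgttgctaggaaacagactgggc
The first 3 have a strict TOP start inside a run of 10, 18 and 10 pyrimidines, Rps27 and Rps27rt have a strict start and longest runs of 9 and 6 (Rps27rt has one of 6 before its start and another of 6 at it), Rps27l has a run of 9 before its start but no strict start, and no run of Rpl24 over 3 bases lies within 20 bases of the start. These are matches of letters at annotated starts, which can differ from the start used in oocytes, and in 22 of the 65 members they lie over 50 bases from the end of the gene in the deposited table.

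Members made up a changing share of the summed FPKM. In the non-polysome fraction the share was 0.68% ± 0.0318 (SD, n = 3) in GV, 1.79% ± 0.136 in MII, 0.412% ± 0.0253 in zygote, 0.303% ± 0.16 in zygote M, 1.54% ± 0.165 for two-cell embryos and 5.6% ± 0.365 for two-cell M. In polysomes it was 0.615% ± 0.212, 1.26% ± 0.0503, 0.308% ± 0.0159, 0.229% ± 0.0473, 0.668% ± 0.142 and 3.48% ± 0.9 in the same order. Both fractions thus had a first high level at MII, a low level at zygote M and their highest at two-cell M, and in MII, zygote, two-cell and two-cell M every polysome library lay below every non-polysome library. The non-polysome replicate B of zygote M stood apart, with a summed member level of 601 FPKM against 270 and 203 FPKM, of which Rps27rt gave 197 FPKM against 7.69 and 2.38 FPKM.

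**Figure D1:**
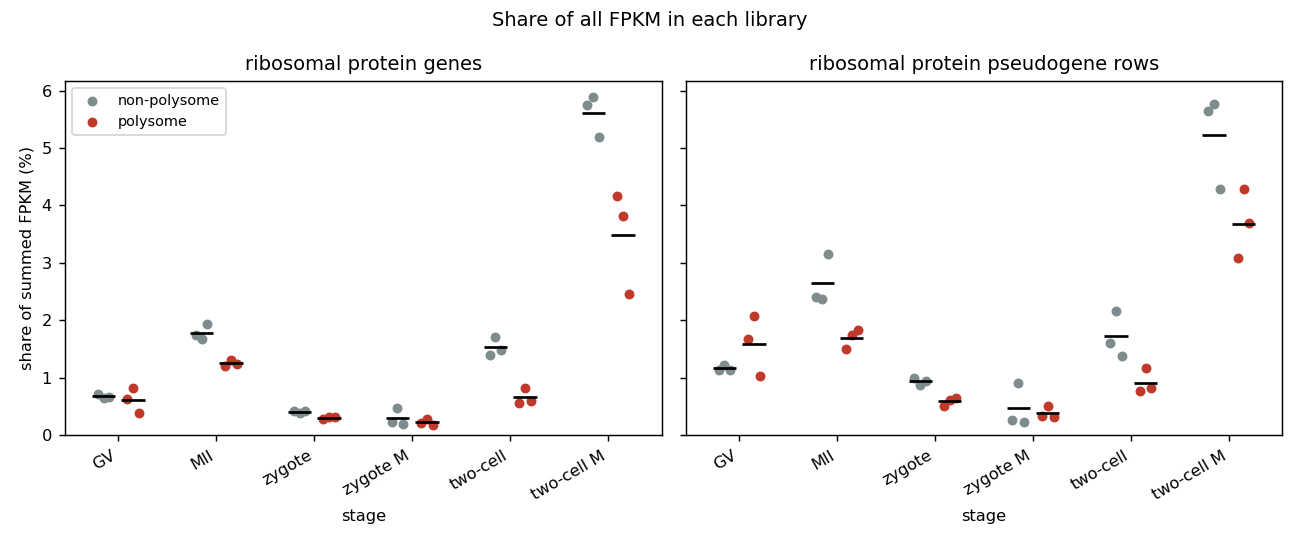
Share of the summed FPKM of each library (%, y axis) held by the 85 ribosomal protein genes (left) and by the 161 pseudogenes in the table whose symbol begins with Rpl or Rps (right) at 6 stages. Points are libraries, 3 per stage and fraction, and bars are means; the member share was 5.6% of non-polysome and 3.48% of polysome FPKM in two-cell M and under 0.5% in every zygote and zygote M library.

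Taken without pseudogenes, the most abundant member in polysomes was Rpl41 or Rplp0 at 5 of 6 stages. Rplp0 forms the base of the P stalk, the arm of the large subunit that recruits translation factors, and Rpl41 is the smallest ribosomal protein. In GV polysomes Rpl41 had 81.0 ± 60.0 FPKM and Rplp0 80.8 ± 29.4 FPKM (mean ± SD, n = 3), a difference within their spread. Rplp0 led in MII (261 ± 20.1 FPKM), zygote (77.6 ± 3.87 FPKM) and two-cell polysomes (157 ± 52.1 FPKM). In two-cell M polysomes Rpl41 reached 1190 ± 483 FPKM, Rps27rt 668 ± 393 FPKM and Rplp0 322 ± 170 FPKM. Zygote M was the exception, where the paralog Rps27l had 80.1 ± 19.4 FPKM and Rplp0 43.9 ± 5.3 FPKM. Summed with the pseudogenes named after members, the order was another. Rpl17 then led in GV (725 FPKM), zygote (191 FPKM) and zygote M (115 FPKM). Rpl19 led in MII (340 FPKM), and Rps2 in two-cell (275 FPKM) and two-cell M (1800 FPKM).

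**Figure D2:**
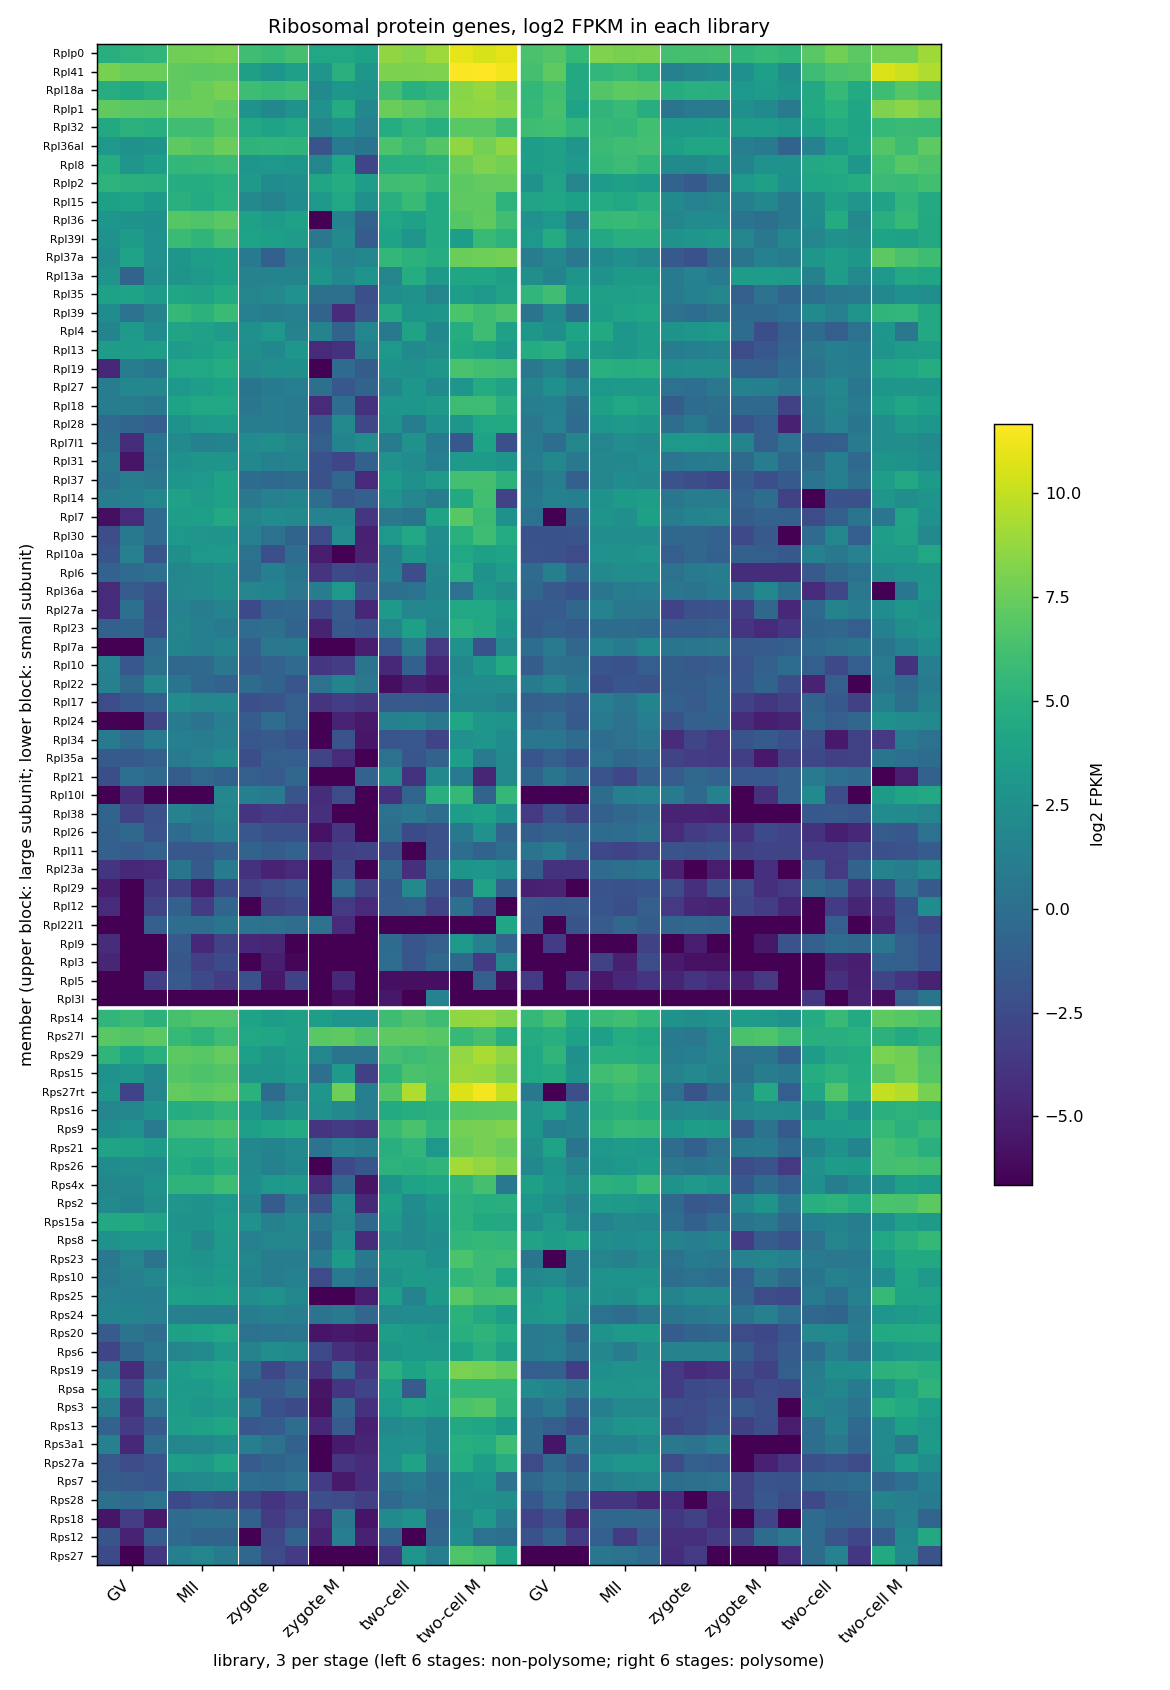
FPKM of 82 of the 85 members in each of the 36 libraries, as colour on a log2 scale. Rows are members ordered by mean level within the large (upper) and small (lower) subunit, and columns are the 3 libraries of each stage, non-polysome on the left and polysome on the right; members were low in zygote M, where 6 to 18 of all 85 were at the floor in a library, and high in two-cell M, where 72 to 78 were above 1 FPKM.

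Reads of ribosomal protein mRNAs are hard to place, because the genome holds many processed pseudogenes copied from them. A median of 41.4% of a member's stretches of 100 bases was also found in the transcript of another gene, over 50% in 34 members, under 20% in 18 and none in 9. The table lists 161 pseudogenes whose symbol begins with Rpl or Rps, and 152 of them are named after 53 of the members. Of these 53, 34 held under 50% of the FPKM summed with their pseudogenes and 20 under 10%. Copies under other names were not counted or summed, so a member without a pseudogene of its name can still be ambiguous. Rpl24 has none of its name, but 80.1% of its stretches were shared, with genes such as Gm28037 and Gm9385. Rpl17, at the rim of the exit tunnel, had a mean of 1.17 FPKM out of 222 FPKM for it and its 7 pseudogenes, and Rps6 had 6.3% of its family's sum. Pseudogenes made up 5.23% of all FPKM in two-cell M non-polysome and 3.68% in two-cell M polysome libraries, close to the share of the members. How the authors' counting placed reads that fit several copies was not given in the sources used here, so the level of such a member is uncertain. Across the 85 members the mean polysome level was lower where more sequence was shared (Spearman rho -0.387 across genes, which are not independent), and the geometric mean of the members' polysome levels was 6.33 FPKM where under 20% was shared and 1.41 FPKM otherwise.

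The first comparison asked in which fraction members were relatively richer at each stage. The tests were limma moderated tests on log2 FPKM with Benjamini-Hochberg adjustment over all 7967 genes tested, and a gene was called at an adjusted p under 0.05 with a fold over 2. Differences are log2 FPKM, polysome minus non-polysome. In two-cell embryos 26 of 81 members were called lower in polysomes and 0 higher, while 6.38% of all tested genes were called lower and 9.69% higher. The median member differed by -1.81, and the median of all genes by 0.28. In 55 of 81 members every polysome library lay below every non-polysome library, against 15.7% of all genes. In two-cell M 14 members were called lower and 0 higher (5.06% and 9.7% of all genes), the median was -1.43 against 0.37 for all genes, and 48 members had no overlap in this direction against 9.56% of all genes. One member was called higher under a few alternatives, at two-cell with 1 FPKM added (1 higher and 42 lower) or when summed with pseudogenes (1 and 27), and at two-cell M with 1 FPKM added (1 and 43), with no minimum level (1 and 9) or without non-polysome replicate B (1 and 11).

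**Figure D3:**
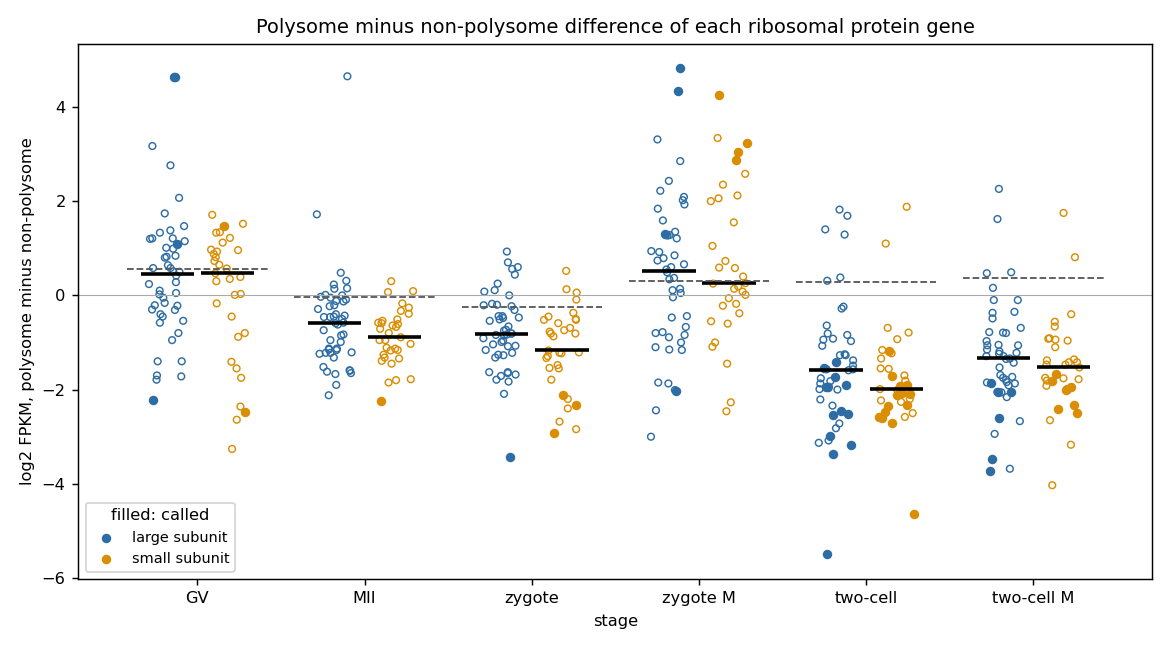
Difference in log2 FPKM between polysome and non-polysome libraries (y axis) for each of the 81 tested members at 6 stages, from 3 libraries of each fraction. Filled points were called, black bars are the medians of the large and of the small subunit, and dashed lines are the median of all 7967 genes; in two-cell and two-cell M both subunit medians lie below -1.3, and the dashed line lies above 0.

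Rplp0 showed the two-cell difference in its best-measured form. It had 123, 217 and 130 FPKM in two-cell polysomes against 402, 323 and 514 FPKM in the non-polysome fraction, a log2 difference of -1.42 (SE 0.32, adjusted p = 0.00278). In two-cell M it had 223, 225 and 518 FPKM in polysomes against 2040, 1500 and 1940 FPKM (-2.61, SE 0.32, adjusted p = 8.36e-07). Neither pair of groups overlapped. Rps27a, which is made as a fusion of ubiquitin to a small subunit protein, had 0.227, 0.287 and 0.19 FPKM in two-cell polysomes and 6.21, 15.3 and 2.01 FPKM outside them (-4.64, SE 0.82, adjusted p = 0.000316). Rpl36al, a paralog of Rpl36a, had 2.74, 10.6 and 17.7 FPKM against 88.7, 59.4 and 109 FPKM (-3.37, SE 0.62, adjusted p = 0.000488). Rpl14 had the largest fall among those called, -5.50 (SE 1.34, adjusted p = 0.00565), with 0.01, 0.239 and 0.228 FPKM against 6.48, 3.64 and 2.14 FPKM, so one of its polysome libraries was at the floor. Rpl14 held 15.8% of the FPKM summed with its pseudogene. Summed, it had means of 2.97 FPKM in two-cell polysomes and 29.9 FPKM outside, so the size of its fall is uncertain. In two-cell M the largest differences among the members called were those of Rpl10 (-3.73, SE 1.19, adjusted p = 0.033) and Rpl34 (-3.47, SE 1, adjusted p = 0.018), each with no overlap between the fractions. The count of 26 fell to 14 without two-cell polysome replicate A, and the count of 14 fell to 7 without two-cell M non-polysome replicate A and to 9 without two-cell M polysome replicate A. The two-cell count was also 15 when only two-cell libraries were fitted, 13 with quantile normalization and 3 with array weights, and the two-cell M count was 0, 2 and 1 in the same fits. With quantile normalization the large and small subunit medians in two-cell M were -0.59 and -0.65. Rpl36al was among the 2 members called at two-cell, and no member was called at two-cell M, under all 15 alternative settings and left-out libraries.

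A difference above 0 was found in 8 of 81 members at two-cell and in 7 at two-cell M, and only in Rps2 did all polysome libraries lie above the others. Rps2, which lines the channel where mRNA enters, had 29.2, 36.8 and 25.0 FPKM in two-cell polysomes and 13.8, 4.78 and 8.22 FPKM in the non-polysome fraction. In two-cell M it had 90.7, 84.8 and 131 FPKM in polysomes and 32.3, 26.9 and 30.5 FPKM outside. The fractions did not overlap at either stage, but with differences of 1.88 (SE 0.96, adjusted p = 0.182) and 1.75 (SE 0.96, adjusted p = 0.235) Rps2 was not called, and it was picked out after its values were seen. Rps2 and its 5 pseudogenes together had a mean of 275 FPKM in two-cell polysomes and 84.1 FPKM outside, and 64.7% of its sequence was shared.

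In oocytes and zygotes fewer members were called in the main fit, an order that depended on the fit. The main fit used a common spread, so a gene's SE was the same at every stage. Replicates differed more at some stages. Their correlation was 0.584 to 0.643 in two-cell, 0.622 to 0.691 in two-cell M, 0.719 to 0.824 in GV, 0.815 to 0.855 in MII and 0.856 to 0.89 in zygote non-polysome RNA. In polysomes it was 0.713 to 0.751 in two-cell, 0.674 to 0.713 in two-cell M and 0.956 to 0.961 in zygote. With array weights the order of the counts was turned, at 16 in GV, 14 in MII and 32 in zygote against 3 at two-cell and 1 at two-cell M. Fitted alone, GV had 1, MII 13 and zygote 21 called against 15 at two-cell and 0 at two-cell M. In GV 4 members were called higher in polysomes (2.61% of all genes) and 2 lower (2.35%), and the member median of 0.47 was close to that of all genes, 0.56. Rpl24, a large subunit protein that forms a bridge to the small subunit, had 0.648, 0.937 and 0.367 FPKM in GV polysomes and 0.0107, 0.0103 and 0.133 FPKM outside (4.63, SE 0.77, adjusted p = 0.000427), so its non-polysome level was near the floor. Of the sequence of Rpl24 80.1% was shared, so its level is uncertain. Rplp0 had 85.4, 108 and 49.3 FPKM in GV polysomes against 30.5, 36.7 and 42.6 FPKM (1.08, SE 0.32, adjusted p = 0.0436). Rpl7a, also called higher, overlapped between the fractions and had 2 of 3 non-polysome libraries at the floor. With a replicate block, which pairs the fractions of one gradient by their letter, the adjusted p was 0.0732 for Rplp0 and 0.0603 for Rpl7a, so neither was called, and 1 member was called higher and 4 lower. Rps27l and Rplp2 were the 2 that were lower. Rps27l had 24.7, 30.6 and 14.2 FPKM in polysomes against 126, 111 and 133 FPKM (-2.48, SE 0.39, adjusted p = 0.000255), and Rplp2, a P stalk protein, had 6.35, 16.5 and 3.27 FPKM against 36.8, 31.1 and 30 FPKM (-2.22, SE 0.48, adjusted p = 0.0064). The GV count of 6 fell to 3 without non-polysome replicate B or without polysome replicate A, and Rps27l alone was called under all 15 alternatives.

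At MII only Rps29 was called, lower in polysomes (0.703% of all genes were lower and 0.0502% higher), with 29.3, 29.8 and 25.9 FPKM against 133, 120 and 151 FPKM (-2.24, SE 0.55, adjusted p = 0.0446), and it was not called when any of the 6 MII libraries was left out or with the replicate block (adjusted p = 0.103), where 0 members were called. The median member differed by -0.71 and the median of all genes by -0.04, and in 48 of 81 members the polysome libraries all lay below the others, against 18.5% of all genes. In zygotes 4 members were called lower and 0 higher (1.34% and 0.0377% of all genes), with a median of -0.83 against -0.24, and 41 members had no overlap in this direction against 31.3% of all genes. Rplp2 had 0.575, 0.36 and 0.908 FPKM in zygote polysomes against 9.54, 4.48 and 5.66 FPKM (-3.44, SE 0.48, adjusted p = 4.5e-05). Rps27l had 1.89, 1.56 and 3.43 FPKM against 19.0, 18.3 and 12.6 FPKM (-2.92, SE 0.39, adjusted p = 3.17e-05). Rps15a (-2.32, SE 0.57, adjusted p = 0.029) and Rps29 (-2.11, adjusted p = 0.0456, and 0.0893 with the replicate block) were the other two. The zygote count was 2 without any one of non-polysome replicates B and D and polysome replicates B, C and D, and Rplp2 and Rps27l were called under all 15 alternatives. Fitted alone, MII had 13 and zygote 21 members called.

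In zygote M 7 members were called higher in polysomes and 1 lower (1.43% and 0.49% of all genes), and the median of 0.40 was close to the 0.31 of all genes. Most of these were at or near the floor outside polysomes. Rps25, a small subunit protein that some viral mRNAs need for initiation, had 0.557, 0.19 and 0.167 FPKM in polysomes and 0.01, 0.01 and 0.0258 FPKM outside (4.25, SE 0.62, adjusted p = 0.000297). Rpl10a had 0.488, 0.472 and 0.33 FPKM against 0.0275, 0.01 and 0.0333 FPKM (4.34, SE 0.75, adjusted p = 0.00219), and Rpl7a (4.82, SE 1.26, adjusted p = 0.0407) had 2 non-polysome libraries at the floor. Rplp0 was the only one of the 7 with levels over 10 FPKM, at 40.5, 50 and 41.2 FPKM in polysomes and 19.8, 20.2 and 14 FPKM outside (1.30, SE 0.32, adjusted p = 0.0262). The member called lower, Rpl15, had 2.35, 3.64 and 1.70 FPKM against 8.51, 19.3 and 5.98 FPKM (-2.02, SE 0.54, adjusted p = 0.0466). With the replicate block the adjusted p was 0.08 for Rpl7a and 0.0551 for Rplp0, so neither was called. The 7 higher were 2 with 0.1 FPKM added, 1 with 1 FPKM added, 1 when zygote M was fitted alone and 10 with array weights. The count of 8 was 4 without any one of the 3 polysome libraries and 12 without non-polysome replicate B, the library that stood apart. No member was called under all 15 alternatives, and with Rps25 summed with its pseudogenes the difference became -0.70.

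The large and small subunits were compared as a description, without a test. The large minus small difference of the medians was 0.00 in GV, 0.31 in MII, 0.36 in zygote, 0.26 in zygote M, 0.41 for two-cell embryos and 0.21 for two-cell M, on the log2 scale of the polysome minus non-polysome difference. In two-cell the large subunit median was -1.58 with 12 of 48 called lower, and the small subunit median was -1.99 with 14 of 33. In two-cell M they were -1.32 with 6 called lower and -1.53 with 8 called lower. A balance between the subunits could also be read within each library, as the mean log2 FPKM of large minus that of small members. It was -1.63 ± 0.108 (SD, n = 3) in two-cell non-polysome and -1.36 ± 0.132 in two-cell polysome libraries, and -1.71 ± 0.22 and -1.52 ± 0.405 in two-cell M. In zygote polysomes it was 0.24 ± 0.0624, and in the zygote non-polysome libraries it ran from -0.42 to 0.10. The difference ran from -1.88 to -1.08 over two-cell and two-cell M libraries and from -0.34 to 0.44 over zygote M libraries. It was also below 0 in every GV library (-1.22 to -0.09) and every MII library (-0.98 to -0.47), and GV non-polysome replicate A, at -1.22, lay within the two-cell range. These levels include members at the floor.

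Roles within the ribosome were compared by the counts of their members, with the background percentages given above. Of the 4 P stalk genes (Rplp0, Rplp1, Rplp2 and Rpl12) 3 were called lower in two-cell polysomes, with a list median of -2.03. In GV Rplp0 was called higher and Rplp2 lower, so genes of one structure differed in direction in the main fit. With the replicate block Rplp0 was not called in GV (adjusted p = 0.0732). Rplp1 had 22.5, 33.4 and 18.4 FPKM in two-cell polysomes against 187, 141 and 97.9 FPKM (-2.51, SE 0.56, adjusted p = 0.00273). Of the 9 genes at the rim of the exit tunnel, where the growing chain leaves, 1 (Rpl26) was called lower at two-cell and 0 at any other stage, with medians of -1.76 at two-cell and -1.22 at two-cell M. Of 6 genes of the small subunit's head and beak, Rps10 and Rps27a were called lower at two-cell and Rps10 at two-cell M, with medians of -2.04 and -1.78. Rpl11, which with Rpl5 binds the 5S rRNA and can hold back Mdm2, was not called between fractions at any stage.

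Rpl24, Rps6 and Rpl35 were also followed by other assays in the study, and Rpsa is the small subunit protein known as a laminin receptor. Rps6, the classical target of S6 kinase, had 0.994, 2.48 and 1.14 FPKM in two-cell polysomes against 8.40, 10.1 and 9.03 FPKM (-2.70, SE 0.71, adjusted p = 0.00999), and was not called at other stages, where the difference ran from -0.91 to 2.12. Rpl35, at the exit tunnel, had 1.01, 1.60 and 1.84 FPKM in two-cell polysomes and 5.30, 6.64 and 3.26 FPKM outside, no overlap but not called (-1.76, SE 0.62, adjusted p = 0.0518). Its other differences lay between -1.22 at two-cell M and 1.20 at GV, none called. Rpl24 was called in GV only, and its two-cell libraries, 0.72, 0.45 and 0.659 FPKM in polysomes against 2.70, 3.03 and 1.58 FPKM, did not overlap (-1.97, SE 0.77, adjusted p = 0.0799). Rpsa was called at no stage, with differences from -1.55 to 1.55 (SE 1.10). For all of these the standard error was at least 0.62, against 0.32 for Rplp0.

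The second comparison followed polysome RNA from one stage to the next, as log2 FPKM of the later minus the earlier stage, and each pair of consecutive steps shares a group of libraries. In the counts here and below, rose and fell mean called higher and called lower. From GV to MII 21 members rose and 4 fell (3.36% and 2.75% of all genes), with a median of 1.51 against 0.18. From MII to zygote 0 rose and 41 fell (1.03% and 3.54%), with a median of -2.58 against -0.09. From zygote to zygote M 4 rose and 18 fell (3.24% and 2.51%), with a median of -0.83 against -0.43. From zygote M to two-cell 35 rose and 1 fell (3.31% and 2.87%), with a median of 1.88 against -0.56, and from two-cell to two-cell M 55 rose and 1 fell (8.13% and 28.1%), with a median of 2.76 against -1.17.

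**Figure D4:**
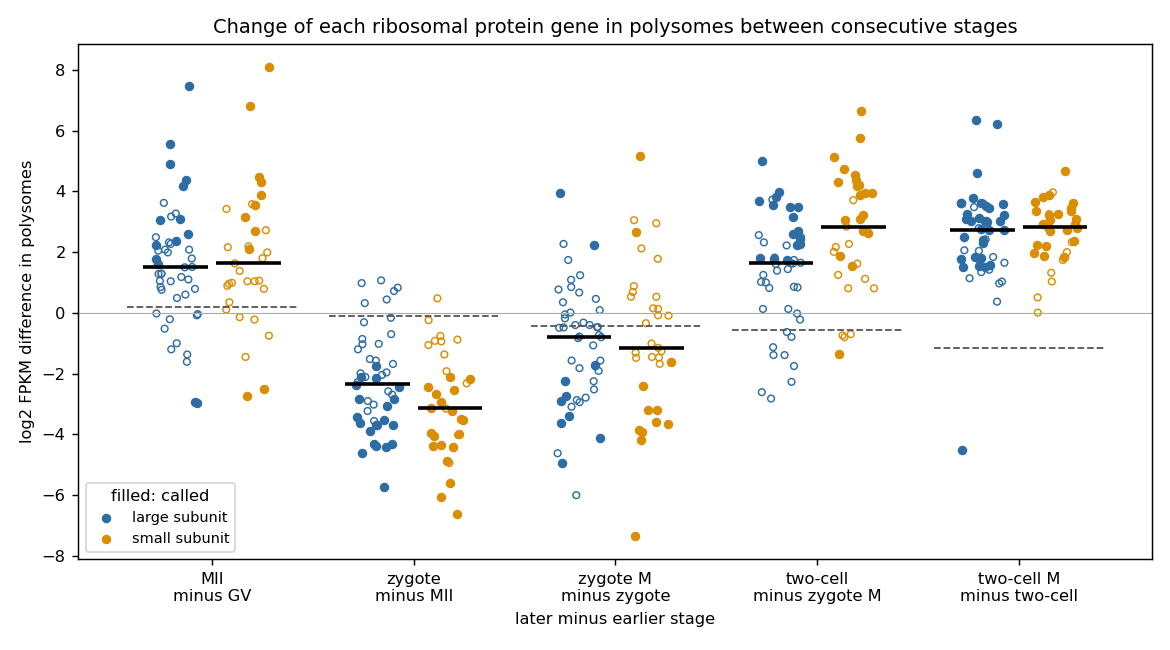
Difference in log2 FPKM between consecutive stages in polysomes (y axis) for each of the 81 tested members, large subunit in blue and small subunit in orange, from 3 libraries per stage. Filled points were called, black bars are subunit medians and dashed lines the median of all 7967 genes; 41 members fell from MII to zygote, and 55 rose from two-cell to two-cell M, where the dashed line is at -1.17.

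The fall from MII to zygote was seen in both subunits, in 21 of 48 large and 20 of 33 small members. At this step the stage cannot be told apart from the change from cultured oocytes to embryos of hCG-treated, mated females. Rps19, which is mutated in Diamond-Blackfan anaemia, had 5.66, 6.75 and 6.78 FPKM in MII polysomes and 0.0871, 0.0511 and 0.0623 FPKM in zygote polysomes (-6.61, SE 0.94, adjusted p = 2.12e-05). Rpl23a, a docking site of the signal recognition particle, went from 0.843, 1.08 and 1.39 FPKM to 0.0315, 0.01 and 0.0271 FPKM (-5.73, SE 1.06, adjusted p = 0.000742). The zygote polysome levels of Rps19 and Rpl23a were low, for Rpl23a at or near the floor, so the size of these falls is uncertain. Rpsa fell from 7.06, 7 and 7.44 FPKM to 0.0894, 0.177 and 0.203 FPKM (-5.60, SE 1.10, adjusted p = 0.00137). Rps27a fell by 4.43 (SE 0.82, adjusted p = 0.000727), Rpl35 by 2.43 (SE 0.62, adjusted p = 0.0165) and Rplp0 by 1.75 (SE 0.32, adjusted p = 0.000576). Rps6 was among those not called, at 2.77, 2.93 and 2.96 FPKM in zygotes against 3.57, 2.10 and 5.26 FPKM in MII (-0.24, SE 0.71). The count of 41 was 63 with array weights and also when only the compared stages were fitted, and 29 of the 41 were called under all 15 alternatives.

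Members with the largest rises from GV to MII were at or near the floor in some or all GV polysome libraries. Rps27 and Rpl10l were listed at the floor in all 3 GV polysome libraries and at 0.856 to 1.48 FPKM and 0.87 to 2.73 FPKM in MII, so no fold is given. Rps27rt had 38.8, 51.3 and 38.5 FPKM in MII against 1.71, 0.01 and 0.226 FPKM in GV (8.08, SE 1.68, adjusted p = 0.00222). Rps27a had 5.83, 7.42 and 8.39 FPKM against 0.184, 0.761 and 0.336 FPKM (4.30, SE 0.82, adjusted p = 0.000892), and Rplp0 281, 240 and 261 FPKM against 85.4, 108 and 49.3 FPKM (1.76, SE 0.32, adjusted p = 0.000438). The 4 that fell were Rpl11 (-2.96, SE 0.80, adjusted p = 0.0223), Rpl22 (-2.94, SE 0.90, adjusted p = 0.0484), Rps28 (-2.75, SE 0.70, adjusted p = 0.0142) and Rps24 (-2.50). Rpl11 had 0.153, 0.134 and 0.192 FPKM in MII and 1.35, 2.06 and 0.669 FPKM in GV. Rps28 had 0.0696, 0.0714 and 0.04 FPKM in MII, near the floor for a transcript of 271 bases, so the size of its fall is uncertain. The count of 25 was 15 without MII polysome replicate B or without replicate C, 40 when only the compared stages were fitted and 52 with array weights, and 12 of the 25 were called under all 15 alternatives. Rpl17, which was called higher in MII (2.23), was called lower (-2.55, adjusted p = 3.79e-05) when summed with its pseudogenes.

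From zygote to zygote M the called members went both ways. Rps9 fell from 7.76, 11.7 and 11.2 FPKM to 0.352, 1.26 and 0.372 FPKM (-4.19, SE 0.53, adjusted p = 2.86e-06), and Rpl6 from 1.12, 1.75 and 2.15 FPKM to 0.0537, 0.0519 and 0.0519 FPKM (-4.94, SE 0.80, adjusted p = 0.000103). Rps6 fell from 2.77, 2.93 and 2.96 FPKM to 0.428, 0.189 and 0.382 FPKM (-3.20, SE 0.71, adjusted p = 0.00435), and Rpl24 by 3.39 (SE 0.77, adjusted p = 0.00537). Rps3a1 had 1.62, 1.26 and 2.08 FPKM in zygote polysomes and was listed at the floor in all 3 zygote M polysome libraries. Rps27l rose from 1.89, 1.56 and 3.43 FPKM to 84.4, 96.9 and 58.9 FPKM (5.18, SE 0.39, adjusted p = 3.19e-10), and Rplp2 from 0.575, 0.36 and 0.908 FPKM to 8.67, 13.4 and 5.73 FPKM (3.93, SE 0.48, adjusted p = 1.6e-06). Rps28 (2.67, SE 0.70, adjusted p = 0.0174) and Rpl37a (2.22) were the other members that rose. Rps28 had 0.0502, 0.01 and 0.0581 FPKM in zygote polysomes, at or near the floor, so the size of its rise is uncertain. The count of 22 was 49 with array weights.

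In two-cell polysomes the rise over zygote M was seen in 16 of 48 large and 19 of 33 small members, with medians of 1.65 and 2.84. Rps26 had 6.23, 10.9 and 9.91 FPKM in two-cell polysomes against 0.201, 0.26 and 0.0832 FPKM (5.75, SE 0.74, adjusted p = 4.48e-06). Rpsa rose by 3.93 (SE 1.10, adjusted p = 0.0274), Rpl24 by 3.98 (SE 0.77, adjusted p = 0.00123), Rps27a by 3.06 (SE 0.82, adjusted p = 0.02, from 0.01, 0.0322 and 0.0664 FPKM in zygote M, near the floor) and Rplp0 by 1.79 (SE 0.32, adjusted p = 0.000404), on the log2 scale. Rps27l was the only member called lower, from 84.4, 96.9 and 58.9 FPKM to 29.1, 30.3 and 32.7 FPKM (-1.35, SE 0.39, adjusted p = 0.0349). The count of 36 was 23 without zygote M polysome replicate A, 21 without zygote M polysome replicate C, 22 without two-cell polysome replicate B and 14 when only the compared stages were fitted, and 9 members were called under all 15 alternatives.

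From two-cell to two-cell M 31 of 48 large and 24 of 33 small members rose in polysomes. Rps27a rose from 0.227, 0.287 and 0.19 FPKM to 3.65, 10.6 and 5.43 FPKM (4.68, SE 0.82, adjusted p = 6.56e-05). Rpl14 rose from 0.01, 0.239 and 0.228 FPKM to 7.45, 5.35 and 7.23 FPKM (6.34, SE 1.34, adjusted p = 0.000539). Summed with its pseudogene, Rpl14 had polysome means of 2.97 FPKM at two-cell and 27.9 FPKM at two-cell M. Rps6 (2.83, SE 0.71, adjusted p = 0.00277), Rpl24 (3, SE 0.77, adjusted p = 0.00333) and Rpl35 (1.77, SE 0.62, adjusted p = 0.0271) rose too, and in each the libraries of the stages did not overlap. Rplp0 did not reach the fold minimum (0.97, SE 0.32, adjusted p = 0.0178). Rpl21 was the only member called lower, from 1.93, 1.01 and 0.829 FPKM to 0.01, 0.0268 and 0.517 FPKM (-4.50, SE 1.57, adjusted p = 0.0264). Summed with pseudogenes, with 1 FPKM added or when only the compared stages were fitted, 0 members were called lower. The count of 56 was 29 with array weights, and 24 of the 56 were called under all 15 alternatives. Two-cell M polysome libraries had 6261 to 7550 genes above 0.1 FPKM against 8383 to 9066 at two-cell, and estimated depths of 11100000 to 19400000 fragments against 19100000 to 21000000. The part of these differences in the rise was not tested.

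The non-polysome fraction moved in the same directions, and these values stand beside those of polysomes without a test of likeness. From GV to MII 46 members rose and 2 fell (13.5% and 3.14% of all genes), with a median of 2.79 against 0.44 for all genes. From MII to zygote 0 rose and 34 fell (1.33% and 1.95%), with a median of -2.21 against 0.12. From zygote to zygote M 2 rose and 36 fell (1.05% and 9.36%), with a median of -2.24 against -0.87. From zygote M to two-cell 63 rose and 1 fell (9.82% and 13.1%), with a median of 3.99 against -0.58. From two-cell to two-cell M 48 rose and 1 fell (8.17% and 28%), with a median of 2.35 against -1.14. The members called against the rest were few. Rps27l fell from GV to MII (-1.38) and from two-cell to two-cell M (-1.45) and rose from zygote to zygote M (2.86). Rps28 fell from GV to MII (-2.37), Rplp2 rose from zygote to zygote M (1.49), and Rpl22 fell from zygote M to two-cell (-6.34).

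Whether the polysome to non-polysome ratio itself changed was tested as the difference between stages of the fraction difference. From zygote M to two-cell the ratio fell in 14 members and rose in 0. Of all genes 1.37% were called lower, and 111 of 7967 were called higher. The 14 members included Rpl10a, Rpl26, Rpl27, Rpl32, Rpl36al, Rps20 and Rps25. Their changes ran from -6.33 for Rps25 to -2.11 for Rpl32. The zygote M non-polysome level of Rps25 was at or near the floor (0.01, 0.01 and 0.0258 FPKM), and its zygote M fraction difference turned from 4.25 to -0.70 when summed with pseudogenes, so its ratio changes are uncertain. Rps9 and Rps20 were also low there, at 0.0666, 0.092 and 0.0682 FPKM and at 0.0204, 0.0243 and 0.0198 FPKM, a mean of 1.01 and 0.868 fragments per library at the estimated depth once the floor of 0.01 FPKM is taken off. By the same estimate Rps6 had a mean of 1.47 zygote M non-polysome fragments, Rps27a 0.407, Rpl10a 0.261 and Rpl26 0.223, and Rps27a had 0.395 in zygote M polysomes, so the size of the ratio changes of these members is uncertain too. Rplp0 changed by -2.72 (SE 0.45, adjusted p = 0.000706), Rps9 by -5.21 (SE 0.75, adjusted p = 0.000117), Rps6 by -4.81 (SE 1.01, adjusted p = 0.00706) and Rps27a by -4.42 (SE 1.16, adjusted p = 0.0367). Rplp0 and Rps9 were the members called under all 21 alternatives. From zygote to zygote M the ratio rose in 3 members, Rps9 (3.69, SE 0.75, adjusted p = 0.0227), Rps20 (4.47, SE 0.79, adjusted p = 0.00891) and Rps25 (4.62, SE 0.88, adjusted p = 0.0133), against 0.289% of all genes. With the replicate block their adjusted p was 0.0552, 0.0552 and 0.0523, so 0 members were called, and the count was also 0 with 0.1 or 1 FPKM added, 1 with quantile normalization, 5 with a mean of at least 1 FPKM, 8 when only the compared stages were fitted and 19 with array weights. The count of 14 was 12 with the block, where Rpl27 (adjusted p = 0.0742) was no longer called, 2 when only the compared stages were fitted, 5 with array weights and 6 with quantile normalization. No member was called in the limma tests of the other 3 steps, where 13 members from GV to MII, 2 from MII to zygote and 11 from two-cell to two-cell M had an unadjusted p under 0.05, against 587, 193 and 1533 of the 7967 genes. The count of 14 was 9 without zygote M polysome replicate B, and the count of 3 was 1 without zygote polysome replicate B, 11 without zygote M non-polysome replicate B and 7 without zygote M non-polysome replicate C.

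Some paralogs of ribosomal protein genes had levels apart from those of their parents at some stages, described here without a test. Rps27 and Rps27rt share nearly all their sequence (98.4% and 89.5% of stretches of 100 bases found elsewhere, Rps27rt being an intronless copy), so their reads may have been placed with either, while none of the sequence of Rps27l or Rpl39l was shared. Rps27l, a gene under p53 control, was the dominant form in GV, with 111 to 133 FPKM outside polysomes and 14.2 to 30.6 FPKM in them, where Rps27rt had at most 8.45 FPKM and Rps27 at most 0.172 FPKM. In two-cell M the order was turned, with Rps27rt at 1010 to 2650 FPKM outside polysomes and 243 to 1020 FPKM in them, and Rps27l at 30.3 to 78.7 and 23.9 to 35.2 FPKM. In zygote M Rps27l had 93.5 to 138 FPKM outside and 58.9 to 96.9 FPKM in polysomes, above Rps27rt in every library but non-polysome replicate B. The difference between the fractions of Rps27l, which was called at GV, zygote and two-cell, was -0.60 (SE 0.39, adjusted p = 0.623) in zygote M and -0.66 (SE 0.39, adjusted p = 0.285) in two-cell M. By the limma test of the ratio neither change was called. It was 2.32 (SE 0.56, adjusted p = 0.0636) from zygote to zygote M and 1.46 (SE 0.56, adjusted p = 0.129) from two-cell to two-cell M.

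Rpl39, at the exit tunnel, and its paralog Rpl39l, known from the male germ line, were both present. In zygote polysomes Rpl39l had 6.74, 7.66 and 9.26 FPKM and Rpl39 1.18, 0.969 and 1.29 FPKM, with no overlap, and in GV polysomes 8.70, 24.7 and 5.01 FPKM against 1.35, 4.37 and 0.90 FPKM. In two-cell polysomes the pair overlapped, at 3.35, 6 and 5.28 FPKM and 4.13, 2.56 and 6.96 FPKM. These values are uncertain for Rpl39, which held 16.5% of the FPKM summed with its 1 pseudogene. Summed, it had a mean of 10.7 FPKM against 12.8 FPKM for Rpl39l in GV polysomes, 4.64 against 7.89 FPKM in zygote polysomes and 26 against 4.88 FPKM in two-cell polysomes. In two-cell M polysomes Rpl39 had 40.9, 43.9 and 21.8 FPKM and Rpl39l 15.6, 14 and 21.5 FPKM. Both rose at this last step (3.02, adjusted p = 0.00128, and 1.82, adjusted p = 0.0368), and the smaller rise of Rpl39l was not tested against that of its parent. Rpl36al was above Rpl36a in every library outside zygote M, for example 56.7 to 73.3 FPKM against 1.43 to 2.30 FPKM in MII polysomes. Of the sequence of Rpl36a 83.6% was shared, and it held 8.56% of the FPKM summed with its 2 pseudogenes. Summed, Rpl36a had a mean of 14.6 FPKM in MII polysomes against 65.4 FPKM for Rpl36al. Rpl22l1 was listed at the floor in all 3 zygote M polysome and all 3 two-cell non-polysome libraries, and Rpl10l, a germ line form, reached 10.3 to 21 FPKM in two-cell M polysomes. Rpl7l1, a ribosome assembly factor related to Rpl7, had 8.56, 8.79 and 8.11 FPKM in zygote polysomes against 2.12, 2.96 and 3.46 FPKM of Rpl7.

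**Figure D5:**
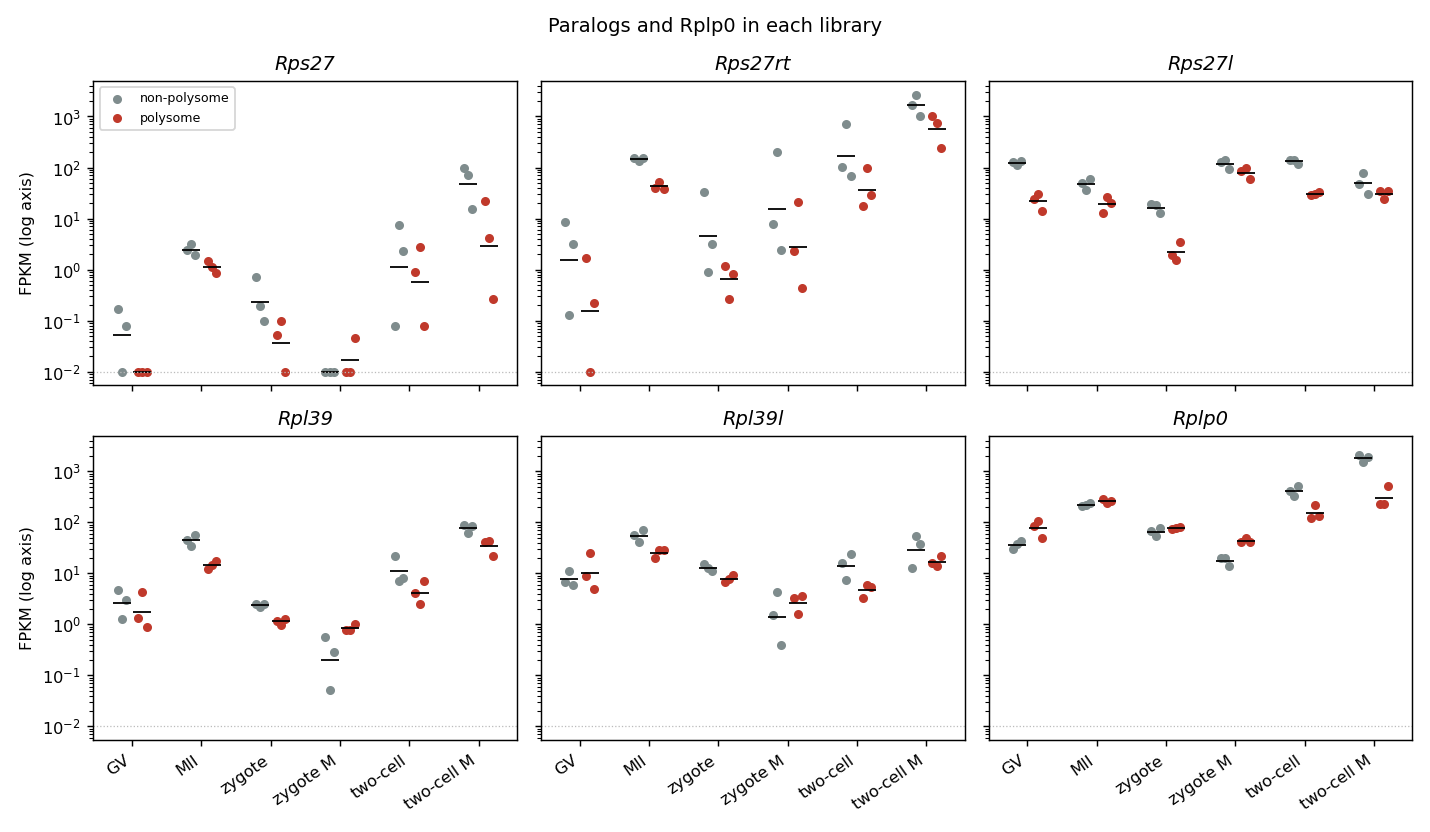
FPKM on a log axis (y axis) at 6 stages for Rps27, its copy Rps27rt and its paralog Rps27l (top), and for Rpl39, Rpl39l and Rplp0 (bottom). Points are libraries, 3 per stage and fraction, bars are geometric means and the dotted line is the floor of 0.01 FPKM; Rps27l lies above Rps27rt in every GV library and below it in every two-cell M library.

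Members were also split by the pyrimidine run at their start, as a description without a test. At two-cell the median difference was -1.82 for 27 tested members with a run of at least 8 and -1.91 for 35 without, with 10 and 9 called, and at two-cell M -1.29 and -1.53. By the strict TOP start the two-cell medians were -1.94 for 13 members and -1.82 for 49, and at two-cell M -1.47 and -1.42. In the same order they were -0.21 and 0.51 in GV and -0.59 and -0.74 in MII. They were -1.33 and -0.77 in zygote and -0.55 and 0.74 in zygote M. By the run the medians were 0.57 and 0.30 in GV and -0.59 and -1.13 in MII. In zygote they were -0.85 and -0.73, and in zygote M 0.40 and 0.58. The 14 genes of other TOP mRNAs, a list of translation factors and related genes, had a two-cell median of -1.47, with Tpt1 and Hnrnpa1 called lower and the elongation factor gene Eef2 called higher in polysomes. Eef2 had 48.7 ± 2.07 FPKM in two-cell polysomes against 18.7 ± 13.8 FPKM outside (1.86, SE 0.62, adjusted p = 0.0388). In two-cell M this list had a median of -0.25, with 1 gene called in each direction. Of all genes 9.69% were called higher and 6.38% lower at two-cell, and 9.7% and 5.06% at two-cell M, which is the background for the lists here. Of the ribosomal proteins named otherwise, Fau was called lower in two-cell M polysomes (-2.26, SE 0.46, adjusted p = 0.00104), and Rack1 was not called between fractions at any stage. The 73 tested mitochondrial ribosomal protein genes had medians of -0.06 at two-cell and 0.90 at two-cell M, with 5 higher and 3 lower, and 11 higher and 3 lower. The 72 tested ribosomal protein pseudogenes had medians of -2.09 and -1.50, with 12 and 10 called lower and 2 and 1 higher.

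The 4 members without a test were near the floor in most libraries. Rpl3l, the form of striated muscle, was at the floor in 28 of 36 libraries. Rpl5 had at most 0.465 FPKM and Rpl3 at most 3.26 FPKM, and Rpl9 was highest in two-cell M non-polysome RNA, at 8.57, 2.54 and 0.623 FPKM. Rpl3, Rpl5 and Rpl9 held 1.72%, 3.57% and 2.93% of the FPKM summed with their pseudogenes.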

How the data were processed

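The deposited values are FPKM per gene and library, made by the authors from SMART-seq v4 libraries read as 150-base pairs; the submitters' processing notes and the study's methods name Trim Galore 0.4.1, STAR 2.5.3a and Partek with GRCm38. The treatment of reads that fit several genes is not given in the sources used here. All 36 libraries, 3 in each of 12 groups, were used, and 2 of 38 samples have no column. Depth is an estimate of 8490000 to 26700000 fragments per library.

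Log2 FPKM, with nothing added because the lowest deposited value is 0.01, entered a limma model (version 3.58.1, R 4.3.3) with 12 group means, a variance trend and no replicate block. Libraries of a stage with the same letter were taken as the light and heavy parts of one gradient, since the study's methods split each gradient into both fractions and its legend gives the letters as replicates, and 6 of 18 such pairs deviated together with a correlation over 0.1 (range -0.00625 to 0.167). The 7967 genes whose geometric mean reached 0.1 FPKM were tested. P-values were adjusted by the Benjamini-Hochberg method over all of them, and a gene was called at an adjusted p under 0.05 and a fold over 2. The study's own test, Partek's gene-specific analysis, was not run. Named genes were, per comparison, at most 3 called members in each direction with the largest differences and no overlap between groups, 6 members followed throughout (Rpl35, Rpl24, Rps6, Rplp0, Rps27a and Rpsa), paralogs with their parents, and at most 3 members highest in polysomes per stage. Members named otherwise were chosen after their values were seen. The members and lists were chosen with earlier results of these data known. Alternatives were 0.1 or 1 FPKM added, other minimums, quantile normalization, fits of the compared stages alone, array weights, a replicate block and leaving out each library. Summing with pseudogenes and using members that share little sequence were added after seeing the data. Shared sequence was counted as stretches of 100 bases over reference transcripts, and start sites came from RefSeq (GRCm38.p6). Python 3.11.15, pandas 2.3.3, numpy 2.4.6 and matplotlib 3.10.9 were used for the rest. The values of some single genes are not reported here.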

Additional observations from a re-analysis of the deposited data

Results flagged for a closer look

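The polysome to non-polysome ratio of some members differed between stages by a limma test of the change itself. From zygote to zygote M it was called higher in 3 members, against 0.289% of all genes. From zygote M to two-cell it was called lower in 14 members, against 1.37% of all genes. Leaving out single libraries took the count of 3 to 1, 7 or 11 and the count of 14 to 9. The count of 3 was 0 with a replicate block and with 0.1 or 1 FPKM added, 1 with quantile normalization, 5 with a mean of at least 1 FPKM, 8 when only the compared stages were fitted and 19 with array weights. In the zygote M non-polysome libraries the 3 members had a mean of 0.0719 (Rps25) to 1.01 (Rps9) fragments at the estimated depth, with the floor taken off. The count of 14 was 2 when only the compared stages were fitted, 5 with array weights, 6 with quantile normalization and 12 with the block. Among the members followed throughout, the latter change was -2.72 for Rplp0, -4.42 for Rps27a and -4.81 for Rps6 on the log2 scale. In zygote M Rps27a had under 1 fragment per library on average in either fraction (0.407 and 0.395) and Rps6 had 1.47 outside polysomes, and they held 9.24% and 6.3% of the FPKM summed with their pseudogenes, so the size of their changes is uncertain. Groups held 3 libraries, too few for a test of single libraries that stand apart.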

How the results depend on the processing

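Counts of called members moved under several alternatives. Of 442 values of counts and medians under the alternatives, 349 stayed within 1.5 times the main count or within 1 SD between replicates of the main median, and 93 moved, and of 4848 values of single members 3989 kept direction and call, 803 lost the call, 29 gained it and 27 changed sign. The cause of these changes was not tested.

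When only the compared stages were fitted, the members called between fractions numbered 1, 13, 21, 1, 15 and 0 from GV to two-cell M. In polysome steps they numbered 40 (GV to MII), 63 (MII to zygote) and 14 (zygote M to two-cell), and ratio changes 1, 1, 8 and 2 for the first 4 steps. With array weights the counts between fractions were 16 in GV, 14 in MII, 32 in zygote, 3 for two-cell and 1 for two-cell M. In polysome steps they were 52, 63, 49 and 29 (two-cell to two-cell M), and ratio changes 10, 2, 19 and 5. With 0.1 FPKM added the counts were 2 for MII, 3 for zygote M and 28 for two-cell M, with 0 for the ratio from zygote to zygote M and a small subunit median of -0.81 in zygote. With 1 FPKM added they were 6 for MII, 2 for zygote M, 43 for two-cell and 44 for two-cell M, with ratio changes of 0 from zygote to zygote M and 4 from two-cell to two-cell M. The large and small medians were then -0.30 and -0.39 in zygote and -1.04 and -1.56 in two-cell. Quantile normalization gave 2 for MII, 13 for two-cell and 2 for two-cell M, ratio changes of 1, 6 and 3 for the last 3 steps, a small subunit median of -1.33 in two-cell, and medians of -0.59 (large) and -0.65 (small) in two-cell M. A mean of at least 1 FPKM gave 5 ratio changes from zygote to zygote M, and no minimum gave 1 from GV to MII. Chosen after seeing the data, summing with pseudogenes gave 5 in zygote M, and members sharing under 20% gave medians of 0.96 (small, GV) and -0.47 (large, zygote).

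With a replicate block 0 members were called in MII and 0 in the ratio from zygote to zygote M. Between fractions and in the ratio no other total moved by over 1.5 times, though in GV the 4 higher and 2 lower became 1 and 4 (in zygote M the 7 and 1 became 6 and 2), and the calls it ended among named members are given beside their values. Between stages the libraries share only a letter, and polysome steps gave 24, 37, 17, 35 and 56 with the block.

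Leaving out 1 library gave counts between fractions of 3 to 8 for GV, 0 for MII, 2 to 4 for zygote, 4 to 12 for zygote M, 14 to 23 for two-cell and 7 to 18 for two-cell M. Polysome steps gave 15 to 20, 30 to 35, 15 to 18, 21 to 32 and 42 to 56, and ratio changes 0 to 2, 0 to 0, 1 to 11, 9 to 21 and 0 to 3. The small subunit median in zygote ran from -1.26 to -0.92.

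Signs that changed belonged to differences that were not called, except Rps25 in zygote M and Rpl17 in both its steps. Rps27a in GV was -0.18 with quantile normalization, -0.35 with array weights and -0.07 without polysome replicate B (range -0.07 to 0.95 over left-out libraries), and in zygote M 0.35, 0.05 and 0.52 without non-polysome B, non-polysome C or polysome A (range -1.07 to 0.52). Rpsa was -0.72 in GV without non-polysome B (range -0.72 to 1.99), and 0.02 and 0.11 in two-cell without non-polysome A or C (range -2.52 to 0.11). From zygote to zygote M Rpsa was -0.03 with array weights, -0.38 summed, -0.24 without zygote polysome B and -0.05 without zygote M polysome B (range -0.24 to 0.35). Rpl24 in MII was 0.12 with quantile normalization and 0.03, 0.15 and 0.22 without non-polysome A, non-polysome C or polysome B (range -0.27 to 0.22), and in zygote M -0.74 with quantile normalization. Rpl35 in zygote M was -0.01 with 1 FPKM added and -0.62 and -0.24 without non-polysome C or polysome B (range -0.62 to 0.53). Summed with pseudogenes, Rps25 in zygote M was -0.70, and Rpl17 was -2.55 from GV to MII and 0.69 from MII to zygote. Rps6 from MII to zygote was 0.06 with quantile normalization, 0.17 summed and 0.08 without MII polysome C (range -0.59 to 0.08).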
